A study of Homo sapiens with 8 samples.

Results

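A set of 10 enzymes and partners that write, copy or remove methyl groups on cytosine in DNA were followed through a pooled CRISPR knockout screen in Taxol-resistant breast cancer cells. They were taken as every row of the deposited sgRNA tables whose gene name was DNMT1, DNMT3A, DNMT3B, DNMT3L, UHRF1, UHRF2, TET1, TET2, TET3 or TDG. All 10 genes were present among the 779 genes of the library, each with 10 sgRNAs, which gave 100 of the 7855 sgRNAs. The guides are named here by their number in the library.

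The cells were T1-160, a derivative of the triple-negative breast cancer line SUM159PT selected for growth in Taxol, a drug that stabilises microtubules. They expressed Cas9 and carried EPIKOL, a lentiviral sgRNA library against chromatin regulators, and the abundance of each sgRNA was counted in amplicons of genomic DNA. The Taxol group comprised 3 libraries of cells kept in 160 nM Taxol for 16 population doublings, and the DMSO group 3 libraries of cells kept in the vehicle DMSO for the same number of doublings. The AP group comprised 2 libraries of cells harvested directly after puromycin selection (replicates 1 and 3), before either treatment. Verapamil, which blocks drug efflux, was present during that selection in all groups. All libraries come from a single resistant line, and how many copies of each gene were cut was not measured. The labels do not say whether the replicates were separate infections. The p-values of tests between libraries therefore measure only the spread between these samples, which may be technical.

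DNA methylation is laid down on unmethylated CpG sites by DNMT3A and DNMT3B, with DNMT3L as an inactive partner that stimulates them. After replication, UHRF1 binds the half-methylated sites and brings DNMT1, which copies the mark to the new strand. UHRF2 is a paralog of UHRF1. The TET dioxygenases TET1, TET2 and TET3 oxidise methylated cytosine, and TDG, a DNA glycosylase, cuts out the later oxidation products so that repair restores an unmodified base. In a dropout screen, an sgRNA whose knockout slows growth becomes rarer than at the start, and one whose knockout favours growth becomes more common.

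Sequencing depth ranged from 260.5 reads per sgRNA in Taxol 2 to 1499 in Taxol 1. The rarest of the 100 sgRNAs had 24 reads in Taxol 2, and none of the 7855 sgRNAs was at 0 in any library. Gene levels are given as log2(normalized count + 1) averaged over the sgRNAs of a gene, where the normalized counts are those deposited by the authors. A fold change is the difference in this level between group means, which on this scale comes out too small for guides with few counts. Genes were tested with limma over all 779 genes, and a gene was called at a Benjamini-Hochberg adjusted p under 0.05. Each of the 3 comparisons has a table that was scaled separately, so values were compared only within a table. The comparisons share libraries: the DMSO libraries enter the comparisons of Taxol with DMSO and of DMSO with AP, and the AP libraries enter both comparisons with AP.

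Taxol was compared with DMSO to find knockouts that made resistant cells rarer or more common under the drug. Knockouts of TET2 and TET3 had the highest levels under Taxol relative to DMSO among the 10 genes, at log2 fold changes of 0.67 and 0.54, and those of DNMT1 and UHRF1 had the lowest, at -0.25 and -0.23. None of the 10 was called, with 0.128% of all genes called. At an unadjusted p under 0.05, TET2 and TET3 were higher (2 of 10) and none was lower, whereas 4.62% of all genes were higher and 1.54% lower at that threshold. The median over the 10 genes was 0.19, against 0.031 over all genes, and 8 of 10 lay above 0, against 55.1% of all genes. Of their 100 guides, 65 were higher under Taxol, against 52.2% of all guides. The Taxol and DMSO libraries overlapped for each of the 10 genes, whereas 6.29% of all genes were higher and 4.49% lower without overlap.

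**Figure D1:**
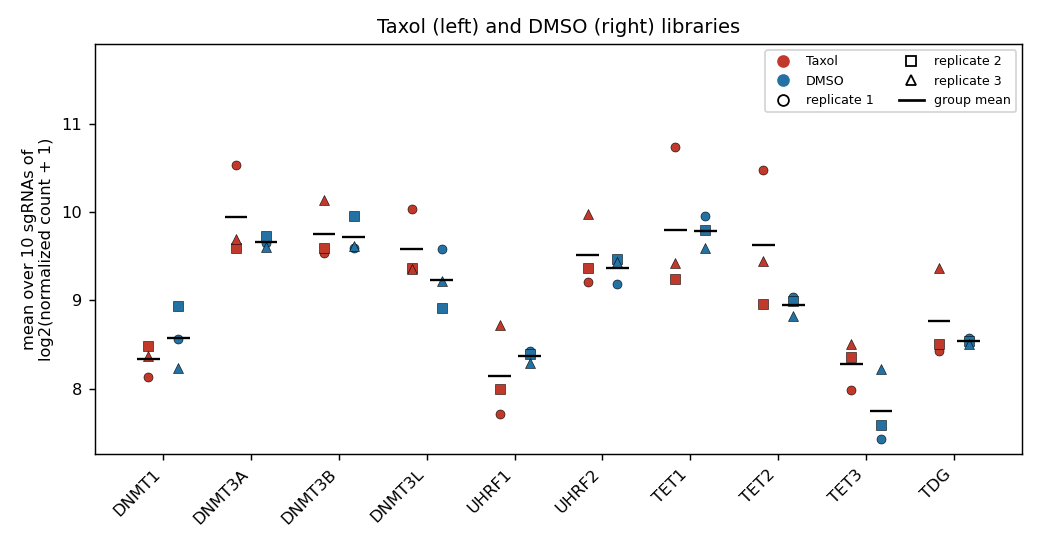
Level of each gene (vertical axis, mean over 10 sgRNAs of log2(normalized count + 1)) in the Taxol libraries (red, left) and the DMSO libraries (blue, right). Symbols mark the replicates and black bars the group means; the groups overlapped for all 10 genes, and Taxol 1 was the highest library for TET1, TET2, DNMT3A and DNMT3L.

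Among the oxidising enzymes, TET2 had levels of 10.47, 8.96 and 9.45 in Taxol 1, 2 and 3, against 9.04, 8.99 and 8.83 in DMSO 1, 2 and 3. Taxol 1 and Taxol 3 lay above every DMSO library, while Taxol 2 lay among them. The group means were 9.62 ± 0.77 under Taxol and 8.95 ± 0.11 under DMSO (SD, n = 3 each), a log2 fold change of 0.67 with a 95% confidence interval from 0.11 to 1.23 (limma, unadjusted p = 0.0204, adjusted p = 0.723). Without Taxol 1 the fold change was 0.25 (adjusted p = 0.913), and without Taxol 2 it was 1.01 (adjusted p = 0.0535). By replicate number, the Taxol library was the higher one for 1 and 3, but not for 2. With that number as a block the unadjusted p was 0.0102 (limma, adjusted p = 0.399).

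Guides against TET2 were higher under Taxol in 9 of 10 cases, with log2 fold changes between -0.35 and 1.40. sgRNA 6401 had 11089, 972.7 and 1336 normalized counts in Taxol 1, 2 and 3, against 1270, 1028 and 1348 in DMSO 1, 2 and 3. sgRNA 6408 had 7982, 800.8 and 506.2 under Taxol, against 1791, 394.0 and 392.3 under DMSO. sgRNA 6406 had 6271, 732.9 and 400.5 under Taxol, against 408.2, 480.3 and 507.7 under DMSO. Each of these guides was most abundant in Taxol 1, and lay between 400.5 and 1336 in Taxol 2 and Taxol 3. Among the other guides, sgRNA 6409 was most abundant in Taxol 3, with 3726 normalized counts, and the range of the remaining fold changes was -0.35 to 0.82. The groups overlapped for all 10 guides of TET2.

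TET3 had levels of 7.99, 8.36 and 8.51 in Taxol 1, 2 and 3, against 7.43, 7.59 and 8.22 in DMSO 1, 2 and 3. All Taxol libraries lay above DMSO 1 and DMSO 2, but Taxol 1 lay below DMSO 3. In each replicate number the Taxol library was the higher one, and with that number as a block the unadjusted p was 0.00732 (limma, adjusted p = 0.356). The log2 fold change was 0.54 (95% confidence interval 0.078 to 1.00, limma, unadjusted p = 0.0232, adjusted p = 0.726), with means of 8.29 ± 0.27 under Taxol and 7.75 ± 0.42 under DMSO (SD, n = 3 each). It was 0.38 without DMSO 1 (limma, unadjusted p = 0.144) and 0.78 without DMSO 3. In contrast to TET2, no single Taxol library was far from the others. Again 9 of 10 guides were higher under Taxol, with fold changes of -0.17 to 1.28. The largest belonged to sgRNA 6419, with 128.0, 174.2 and 585.4 normalized counts under Taxol, against 92.99, 117.4 and 82.46 under DMSO. This was the TET3 guide whose groups did not overlap, but its unadjusted p was 0.0573 (limma over all sgRNAs), and 4.76% of all guides were higher and 4.26% lower without overlap.

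**Figure D2:**
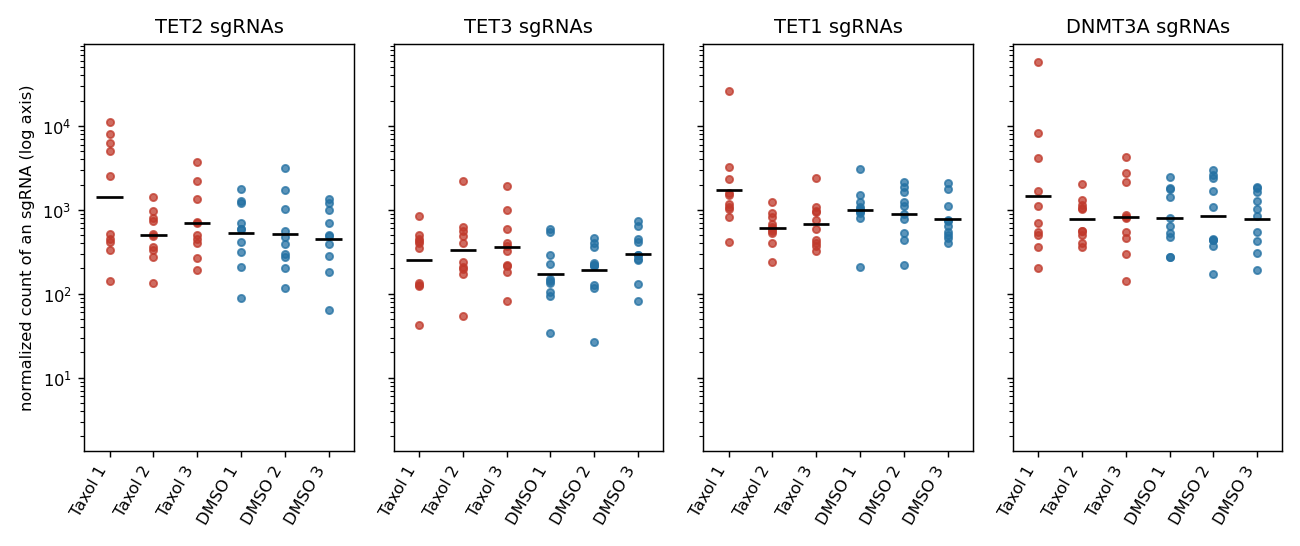
Normalized count of each of the 10 sgRNAs (points, logarithmic vertical axis) against TET2, TET3, TET1 and DNMT3A in the Taxol libraries (red) and the DMSO libraries (blue), with black bars at the mean on the log scale. A few guides reached 6271 to 11089 for TET2, 26013 for TET1 and 57015 for DNMT3A in Taxol 1.

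For TET1 the levels were 10.74, 9.25 and 9.42 in Taxol 1, 2 and 3, against 9.95, 9.80 and 9.59 in DMSO 1, 2 and 3. Taxol 1 lay above and the other Taxol libraries lay below all DMSO libraries. The fold change was 0.021 (95% confidence interval -0.60 to 0.64, adjusted p = 0.996), and -0.45 without Taxol 1. A single guide, sgRNA 6392, had 26013 normalized counts in Taxol 1 and held 66.4% of the TET1 counts of that library, against 1251 and 765.9 in Taxol 2 and 3 and 638.5 to 1864 in DMSO. TDG had levels of 8.43, 8.50 and 9.36 in the Taxol libraries, against 8.57, 8.55 and 8.51 in the DMSO libraries. Only Taxol 3 was high, and the fold change of 0.22 became -0.075 without it.

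Within the de novo group, DNMT3L was at 10.03, 9.36 and 9.36 in Taxol 1, 2 and 3, against 9.58, 8.91 and 9.22 in DMSO 1, 2 and 3. In each replicate number the Taxol library was higher than the DMSO library, but with that number as a block the unadjusted p was 0.197 (limma, adjusted p = 0.811). The fold change was 0.35 (95% confidence interval -0.18 to 0.88, adjusted p = 0.871), with 9 of 10 guides higher. Robust rank aggregation, which asks whether the guides of a gene lie together at one end of the ranking of all guides, gave DNMT3L an unadjusted p of 0.0263 (adjusted p = 0.706), with 5.91% of all genes past the unadjusted threshold in that direction. TET2 and TET3 passed it as well, with unadjusted p-values of 0.0097 and 0.0232 (rank aggregation, adjusted p = 0.549 and 0.706). The p-values of rank aggregation compare guides, and guides to the same gene are not replicates of a condition.

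DNMT3A had levels of 10.53, 9.59 and 9.70 in the Taxol libraries, against 9.65, 9.73 and 9.61 in the DMSO libraries, and its fold change of 0.28 became -0.017 without Taxol 1. In Taxol 1, 2 guides stood out, the more abundant being sgRNA 1728, the sixth most abundant guide of that library. It had 57015, 2020 and 2150 normalized counts in Taxol 1, 2 and 3, against 1841, 2586 and 1628 in DMSO 1, 2 and 3. This guide held 76.5% of the DNMT3A counts in Taxol 1, while the median share of the most abundant guide over all genes with 10 sgRNAs was 34.7% there. sgRNA 1727 was also high in Taxol 1, with 8258, 561.0 and 548.0 normalized counts in Taxol 1, 2 and 3, against 478.0, 446.9 and 424.1 in DMSO 1, 2 and 3, without overlap between the groups (fold change 1.60, limma over all sgRNAs, unadjusted p = 0.104). Of all guides, 4.76% were higher without overlap. DNMT3B was at 9.53, 9.59 and 10.14 under Taxol, against 9.59, 9.96 and 9.61 under DMSO, with a fold change of 0.032 (95% confidence interval -0.52 to 0.58). Its guides ranged from -1.37 to 1.68. The highest was that of sgRNA 1733, with 2178, 1310 and 2456 normalized counts under Taxol, against 1329, 515.0 and 309.8 under DMSO (limma over all sgRNAs, unadjusted p = 0.0316, adjusted p = 0.967). DMSO 1 lay above Taxol 2 for this guide. The lowest was that of sgRNA 1732, with 337.7, 391.3 and 290.5 normalized counts under Taxol, against 1899, 717 and 493.6 under DMSO. Its Taxol libraries all lay below its DMSO libraries, as for 4.26% of all guides (limma over all sgRNAs, unadjusted p = 0.0559). Among all 7855 guides, 2.01% were higher and 1.55% lower at the unadjusted threshold, and none was called.

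The maintenance genes DNMT1 and UHRF1 had fold changes below 0 under Taxol that passed no threshold with all libraries. DNMT1 had levels of 8.14, 8.49 and 8.38 in Taxol 1, 2 and 3, against 8.56, 8.94 and 8.24 in DMSO 1, 2 and 3 (fold change -0.25, 95% confidence interval -0.70 to 0.21, adjusted p = 0.909). DMSO 3 lay within the Taxol libraries, and 5 of 10 guides were lower. Its value was -0.066 without DMSO 2 and -0.42 without DMSO 3. UHRF1 was at 7.71, 8.00 and 8.72 under Taxol, against 8.43, 8.39 and 8.30 under DMSO (fold change -0.23, 95% confidence interval -0.70 to 0.24, adjusted p = 0.909). Of its guides, 8 of 10 were lower, and Taxol 3 was the highest of all 6 libraries. Its value was -0.012 without Taxol 1 and -0.52 without Taxol 3, where the groups did not overlap (limma, unadjusted p = 0.0366, adjusted p = 0.729). UHRF2 was at 9.21, 9.37 and 9.98 under Taxol, against 9.19, 9.47 and 9.44 under DMSO. Here too Taxol 3 was the highest library, and the fold change of 0.15 became -0.077 without it.

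As a scale for these values, ABCB1, which encodes the efflux pump P-glycoprotein, had a fold change of -0.87 in the same fit, with all Taxol libraries below all DMSO libraries and 9 of 10 guides lower (limma, adjusted p = 0.193). Rank aggregation called ABCB1 lower in this comparison (adjusted p = 0.0388). It was the lowest of all 779 genes here, so it marks an extreme of these data, and 4.49% of all genes were lower without overlap. Relative to AP, ABCB1 was at 0.52 in DMSO and at -0.31 under Taxol, and the groups overlapped in both comparisons. For the 10 genes, the median half-width of the 95% confidence interval was 0.53 on the log2 scale.

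**Figure D3:**
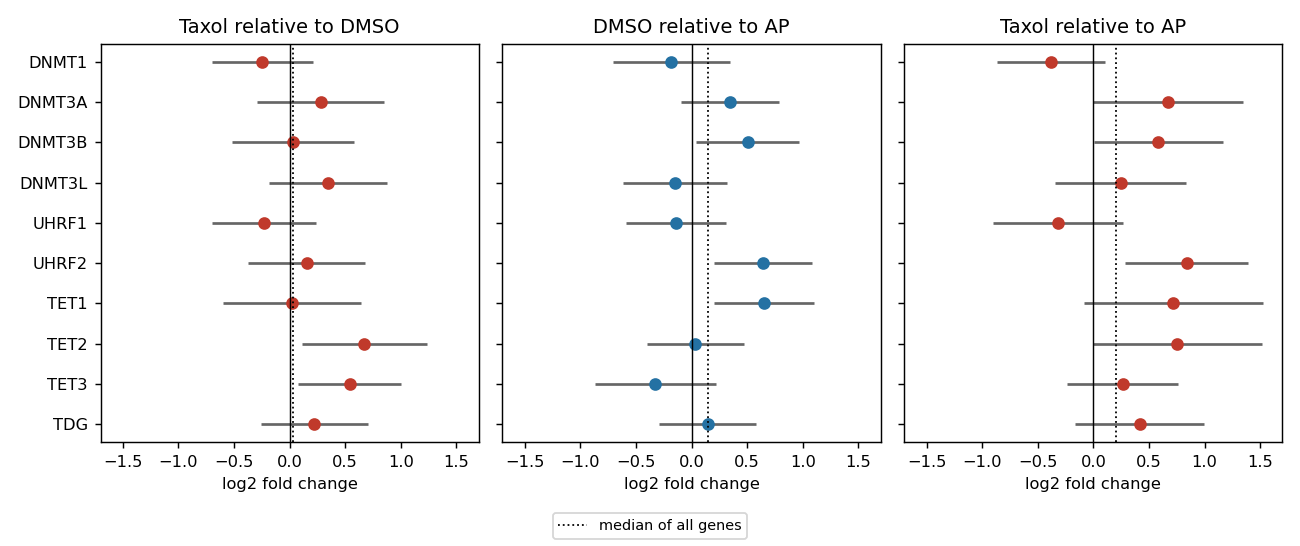
Log2 fold change of each gene (points) with its 95% confidence interval from limma (lines) for Taxol relative to DMSO, DMSO relative to AP and Taxol relative to AP. Dotted lines mark the median of all 779 genes (0.031, 0.15 and 0.20). UHRF2 had intervals above 0 in both comparisons with AP, and DNMT1 and UHRF1 had points below 0 in all 3 comparisons. With libraries centred on non-targeting sgRNAs, which cut no human gene by design (not drawn), the UHRF2 intervals included 0 in both comparisons with AP.

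The comparison of DMSO with AP asked which knockouts were lost or gained during growth without the drug. Guides against UHRF2, TET1 and DNMT3B had higher levels after 16 doublings, at log2 fold changes of 0.64, 0.65 and 0.51, and those against TET3, DNMT1, DNMT3L and UHRF1 were at -0.32, -0.18, -0.15 and -0.14. The 80 non-targeting sgRNAs, which cut no human gene by design, had a median fold change of 0.43, and with each library centred on them UHRF2 was at 0.33, TET1 at 0.34 and DNMT3B at 0.20, none past the unadjusted threshold. None of the 10 genes was called, with 2.18% of all genes called (11 lower and 6 higher). At an unadjusted p under 0.05, 3 of 10 were higher and none was lower, whereas 12.5% of all genes were higher and 8.73% lower. DMSO and AP libraries did not overlap for 5 of 10 genes, all higher in DMSO (DNMT3A, DNMT3B, UHRF2, TET1 and TDG), against 29.3% of all genes higher and 14.1% lower in this way. The median over the 10 genes was 0.091, below the median of 0.15 over all genes. Of the 10 genes, 6 lay above 0, against 63.3% of all genes, and 59 of the 100 guides were higher, against 56.8% of all guides.

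UHRF2 had levels of 9.61, 9.99 and 9.86 in DMSO 1, 2 and 3, against 9.17 and 9.18 in AP 1 and AP 3. All DMSO libraries lay above both AP libraries, and 9 of 10 guides were higher. The fold change was 0.64 (95% confidence interval 0.20 to 1.08, limma, unadjusted p = 0.00659, adjusted p = 0.124), with means of 9.82 ± 0.19 in DMSO (SD, n = 3) and 9.18 ± 0.0081 in AP (SD, n = 2). The largest value belonged to sgRNA 6830, with 1761, 3189 and 3181 normalized counts in DMSO 1, 2 and 3, against 738.8 and 1303 in AP 1 and AP 3 (fold change 1.41, limma over all sgRNAs, unadjusted p = 0.0236, adjusted p = 0.727). The other guides ranged from -0.13 to 1.09.

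TET1 had levels of 10.37, 10.31 and 10.02 in DMSO 1, 2 and 3, against 9.52 and 9.65 in AP 1 and AP 3, again without overlap. The fold change was 0.65 (95% confidence interval 0.20 to 1.10, limma, unadjusted p = 0.00683, adjusted p = 0.124), and 8 of 10 guides were higher. sgRNA 6392, the guide that was so abundant in Taxol 1, had 2035, 2667 and 859.1 normalized counts in DMSO 1, 2 and 3, against 438.7 and 873.9 in AP 1 and AP 3 (fold change 1.43, unadjusted p = 0.0401 from limma over all sgRNAs). DMSO 3 lay just below AP 3 for this guide. DNMT3B was at 10.01, 10.48 and 10.04 in the DMSO libraries, against 9.60 and 9.74 in the AP libraries, with 9 of 10 guides higher (fold change 0.51, 95% confidence interval 0.042 to 0.97, limma, unadjusted p = 0.0343, adjusted p = 0.199). Rank aggregation gave these 3 genes unadjusted p-values of 0.0123 (UHRF2), 0.0281 (TET1) and 0.0384 (DNMT3B) and adjusted p-values of 0.418 to 0.534, with 7.70% of all genes past the unadjusted threshold as higher.

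DNMT3A lay at 10.07, 10.24 and 10.04 in DMSO, against 9.84 and 9.70 in AP, a fold change of 0.34 (95% confidence interval -0.095 to 0.78, adjusted p = 0.344). TDG differed by 0.15, with all libraries of both groups between 8.82 and 9.06. TET2 differed by 0.035 (95% confidence interval -0.40 to 0.47), and its groups overlapped. TET3 was the lowest of the 10 genes, with levels of 7.85, 8.10 and 8.65 in DMSO 1, 2 and 3, against 8.75 and 8.29 in AP 1 and AP 3 (fold change -0.32, 95% confidence interval -0.87 to 0.22, adjusted p = 0.476). DMSO 3 lay between the AP libraries, and 8 of 10 guides were lower. The low TET3 levels of DMSO 1 and DMSO 2 enter this comparison and that of Taxol with DMSO.

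**Figure D4:**
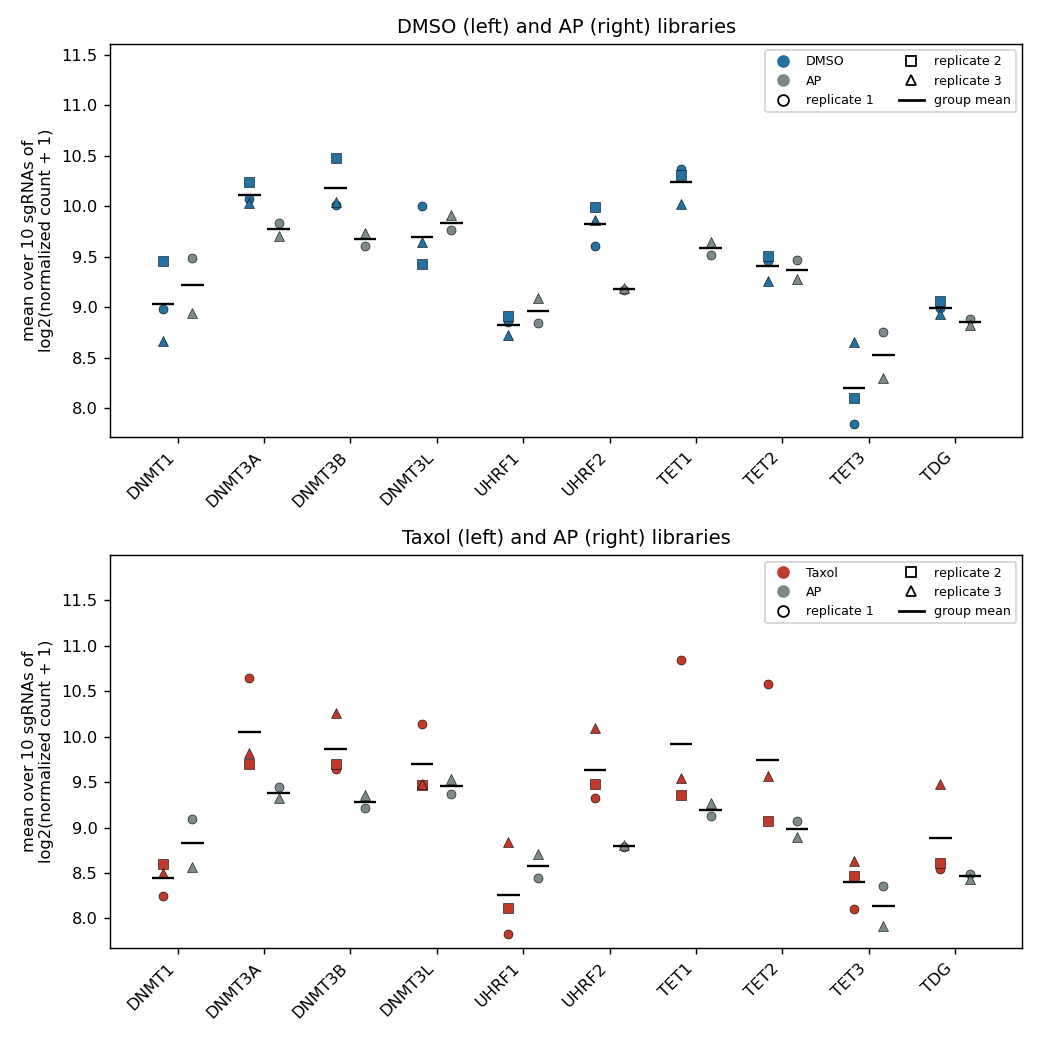
Level of each gene (vertical axis, mean over 10 sgRNAs of log2(normalized count + 1)) in DMSO libraries (blue) left of AP libraries (grey) in the upper panel, and in Taxol libraries (red) left of AP libraries (grey) in the lower panel. Symbols mark the replicates and black bars the group means. The panels were scaled separately, and UHRF2 lay above AP in every DMSO and every Taxol library. With libraries centred on the non-targeting sgRNAs (not drawn), UHRF2 overlapped with AP in both comparisons.

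DNMT1 as a gene differed little between DMSO and AP, with levels of 8.98, 9.45 and 8.67 in DMSO 1, 2 and 3, against 9.49 and 8.94 in AP 1 and AP 3 (fold change -0.18, 95% confidence interval -0.70 to 0.34, adjusted p = 0.674). Its guides, however, were spread from -1.86 to 0.96. sgRNA 1716 had 62.26, 84.86 and 114.1 normalized counts in DMSO 1, 2 and 3, against 539.4 and 178.1 in AP 1 and AP 3 (fold change -1.86, limma over all sgRNAs, unadjusted p = 0.0183, adjusted p = 0.727). sgRNA 1718 had 301.3, 459.6 and 312.3 in DMSO, against 1351 and 615.1 in AP (fold change -1.37, unadjusted p = 0.0467 from limma over all sgRNAs). For both guides the DMSO values were lower than either AP value, as for 12% of all guides, with 11.2% higher, yet 6 of the 10 DNMT1 guides had fold changes above 0. Among single guides, 3.65% of all 7855 were lower and 3.21% higher at the unadjusted threshold.

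DNMT3L and UHRF1 were likewise close to 0 as genes in the deposited counts. DNMT3L was at 10.00, 9.43 and 9.64 in DMSO, against 9.76 and 9.92 in AP (fold change -0.15, 95% confidence interval -0.61 to 0.32). Its sgRNA 1741 had 613.9, 354.6 and 318.6 normalized counts in DMSO, against 1651 and 983.2 in AP (fold change -1.63, limma over all sgRNAs, unadjusted p = 0.0190, adjusted p = 0.727). UHRF1 was at 8.85, 8.91 and 8.72 in DMSO, against 8.84 and 9.09 in AP (fold change -0.14, 95% confidence interval -0.59 to 0.31), with 7 of 10 guides lower. For comparison, 2 genes taken as a scale were called in this fit: PRMT5, an arginine methyltransferase needed by many cell lines, at -1.17 (adjusted p = 0.0227), and KEAP1, which targets the stress regulator NRF2 for degradation, at 1.36 (adjusted p = 0.0124). They were the lowest and the highest of all 779 genes here, so they mark the extremes of these data. With libraries centred on the non-targeting sgRNAs, 0 genes were called higher, so KEAP1 was not called.

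The comparison of Taxol with AP covered the same period with the drug present. Relative to AP, UHRF2, TET2, TET1, DNMT3A and DNMT3B were at log2 fold changes of 0.84, 0.75, 0.72, 0.67 and 0.58, and DNMT1 and UHRF1 at -0.38 and -0.32. The non-targeting sgRNAs had a median fold change of 0.68 here, and centred on them UHRF2 was at 0.31, TET2 at 0.23, TET1 at 0.19, DNMT3A at 0.14 and DNMT3B at 0.058, none of these past the unadjusted threshold. None of the 10 was called, with 0.128% of all genes called. At an unadjusted p under 0.05, UHRF2 and DNMT3B were higher (2 of 10) and none was lower, against 16.9% of all genes higher and 6.29% lower. For 5 of 10 genes all Taxol libraries lay above both AP libraries (DNMT3A, DNMT3B, UHRF2, TET1 and TDG), against 32.3% of all genes above and 14.5% below. The median over the 10 genes was 0.50, against 0.20 over all genes. Of the 10 genes, 8 lay above 0, against 67.7% of all genes, and 73 of the 100 guides were higher, against 57.8% of all guides.

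UHRF2 had levels of 9.32, 9.48 and 10.10 in Taxol 1, 2 and 3, against 8.78 and 8.80 in AP 1 and AP 3. The fold change was 0.84 (95% confidence interval 0.29 to 1.39, limma, unadjusted p = 0.00589, adjusted p = 0.107), with means of 9.63 ± 0.41 under Taxol (SD, n = 3) and 8.79 ± 0.013 in AP (SD, n = 2). Again 9 of 10 guides were higher, between -0.092 and 1.49. Its most changed guide, sgRNA 6825, had 475.0, 6132 and 2015 normalized counts in Taxol 1, 2 and 3, against 562.8 and 731.3 in AP 1 and AP 3. sgRNA 6830 was above AP under Taxol too, with 2787, 1077 and 1656 normalized counts, against 563.8 and 999.1 in AP. DNMT3B was at 9.64, 9.70 and 10.26 under Taxol, against 9.21 and 9.36 in AP, with 8 of 10 guides higher (95% confidence interval 0.0047 to 1.16, limma, unadjusted p = 0.0484, adjusted p = 0.212). Its sgRNA 1733 had 2353, 1414 and 2674 normalized counts under Taxol, against 774.8 and 546.4 in AP (fold change 1.67, limma over all sgRNAs, unadjusted p = 0.0279, adjusted p = 0.737). The other DNMT3B guides ranged from -0.38 to 1.01. Rank aggregation gave UHRF2 an unadjusted p of 0.0051 (adjusted p = 0.159) and TET2 one of 0.0470 (adjusted p = 0.510), with 9.5% of all genes past the unadjusted threshold as higher.

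For TET2 and TET1, Taxol 1 was the highest library. TET2 was at 10.58, 9.07 and 9.57 in Taxol 1, 2 and 3, against 9.08 and 8.90 in AP, and Taxol 2 lay between the AP libraries (adjusted p = 0.216). Its fold change was 0.33 without Taxol 1. TET1 was at 10.85, 9.36 and 9.55 in Taxol 1, 2 and 3, against 9.13 and 9.27 in AP, with 9 of 10 guides higher (adjusted p = 0.249), and its fold change was 0.25 without Taxol 1. TET3 was at 8.10, 8.47 and 8.63 under Taxol, against 8.36 and 7.91 in AP (fold change 0.26, adjusted p = 0.463), and Taxol 1 was the lowest Taxol library and lay between the AP libraries. The fold change of TET3 was 0.41 without Taxol 1 and 0.038 without AP 3. DNMT3A had levels of 10.64, 9.70 and 9.82 under Taxol, against 9.45 and 9.32 in AP, and its fold change was 0.38 without Taxol 1. TDG differed by 0.42 and DNMT3L by 0.25, neither past the unadjusted threshold. TDG was at 0.11 without Taxol 3, and DNMT3L at 0.023 without Taxol 1.

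**Figure D5:**
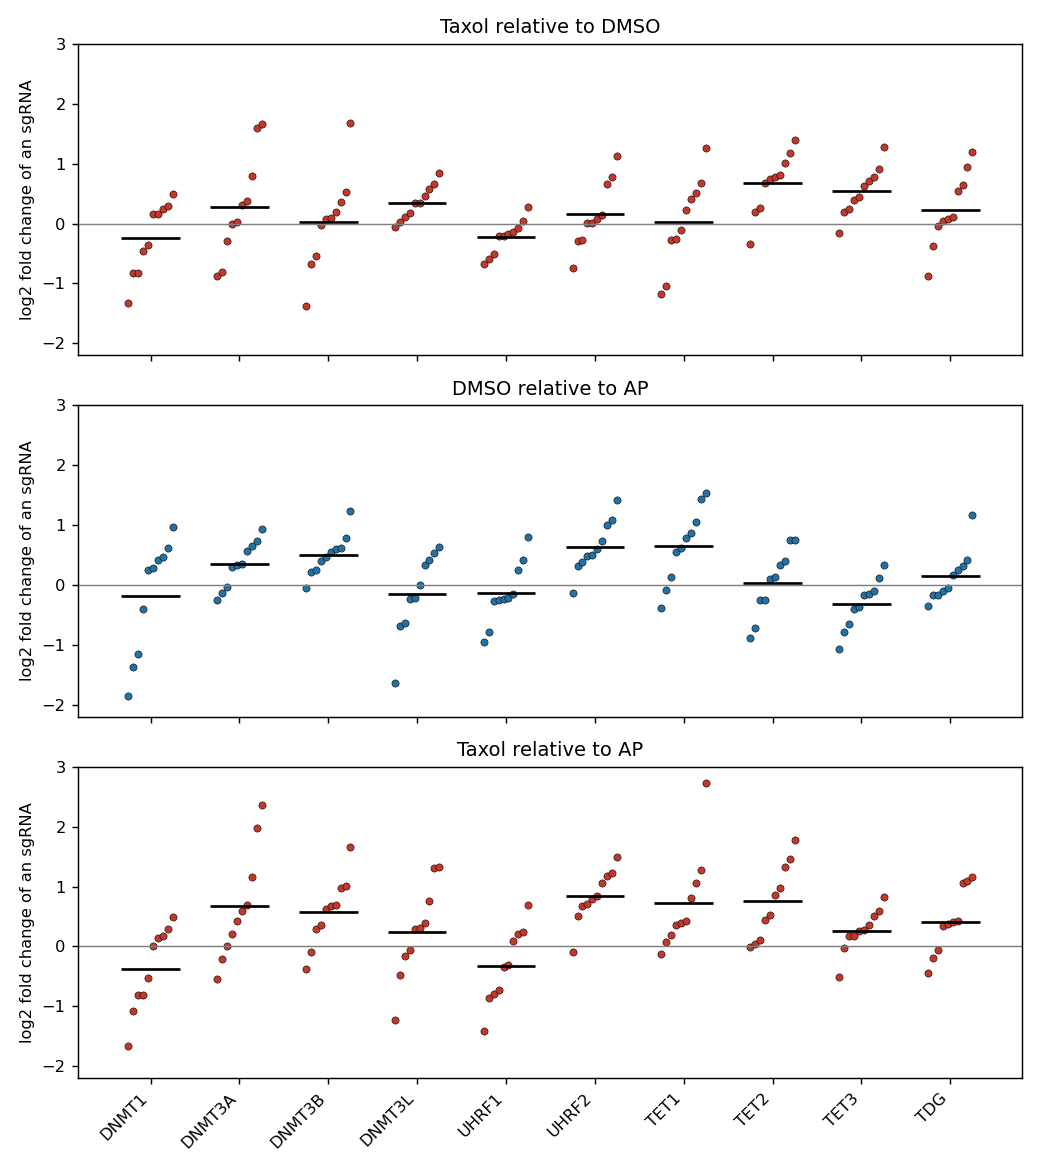
Fold change (log2) of every sgRNA per gene (points, ordered by value within a gene) and their mean (black bars) for Taxol relative to DMSO, DMSO relative to AP and Taxol relative to AP. Guides against DNMT1 reached from -1.86 to 0.96 in DMSO relative to AP, and 9 of 10 UHRF2 guides lay above 0 in both comparisons with AP. In DMSO and in Taxol relative to AP, 56.8% and 57.8% of all guides lay above 0. The non-targeting sgRNAs had median fold changes of 0.43 and 0.68 there (not drawn).

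DNMT1 had levels of 8.25, 8.60 and 8.50 in Taxol 1, 2 and 3, against 9.10 and 8.56 in AP 1 and AP 3, and Taxol 2 lay just above AP 3 (95% confidence interval -0.86 to 0.11, adjusted p = 0.291). At the level of single guides, 3.90% of all 7855 were lower and 2.24% higher at the unadjusted threshold. sgRNA 1716 was low here as well, with 73.72, 78.15 and 71.88 normalized counts under Taxol, against 411.6 and 136.6 in AP (fold change -1.66, limma over all sgRNAs, unadjusted p = 0.0175, adjusted p = 0.737). UHRF1 was at 7.82, 8.11 and 8.84 under Taxol, against 8.45 and 8.71 in AP (95% confidence interval -0.91 to 0.27, adjusted p = 0.444). Its sgRNA 6820 had 104.9, 149.0 and 136.6 normalized counts under Taxol, against 461.2 and 259.6 in AP (fold change -1.42, limma over all sgRNAs, unadjusted p = 0.0180, adjusted p = 0.737). sgRNA 1741 of DNMT3L had 398.3, 412.7 and 428.9 under Taxol, against 1260 and 754.1 in AP (fold change -1.24, unadjusted p = 0.0440 from limma over all sgRNAs). The AP libraries in which these guides were high are the same as in the comparison of DMSO with AP.

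The direction of the smaller values depended on what the libraries were set against. The median fold change of the non-targeting sgRNAs was 0.11 in Taxol relative to DMSO. Centring each library on them moved the median over all genes by -0.17 in Taxol relative to DMSO, -0.31 in DMSO relative to AP and -0.53 in Taxol relative to AP. In Taxol relative to AP, DNMT1 was then at -0.91 (limma, adjusted p = 0.0121) and UHRF1 at -0.85 (adjusted p = 0.0232), and both were called lower, together with 19.3% of all genes lower and 0.513% higher. In DMSO relative to AP the same centring put TET3 at -0.63, DNMT1 at -0.49, DNMT3L at -0.46 and UHRF1 at -0.45. None of them was called, with 2.05% of all genes called lower and none higher. All DMSO libraries then lay below both AP libraries for DNMT3L and UHRF1, and above them for TET1. All Taxol libraries lay below both AP libraries for DNMT1 and UHRF1. DNMT3A, DNMT3B, UHRF2 and TDG then overlapped with AP in both comparisons, and TET1 in Taxol relative to AP. The share of all genes without overlap after centring was not counted. TET2 and TET3 under Taxol relative to DMSO were at 0.50 and 0.37 (limma, unadjusted p = 0.10 and 0.176, adjusted p = 0.917 each). With this centring 5 of the 10 genes lay above 0 in Taxol relative to DMSO, 4 in DMSO relative to AP and 5 in Taxol relative to AP, against 31.5%, 28.4% and 18.9% of all genes. When the recovered reads of a gene were summed, which gives abundant guides more weight, DNMT1 turned to 0.012 in Taxol relative to DMSO, 0.21 in DMSO relative to AP and 0.28 in Taxol relative to AP. In Taxol relative to DMSO the same sums put DNMT3A at 1.07 and UHRF2 at 0.55, with unadjusted p-values of 0.0923 and 0.154 (limma with voom).

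Other genes of the pathway were taken from a list of 27, of which 21 were in the library. None of the 21 was called in any comparison. In Taxol relative to DMSO, MBD5, a member of the methyl-CpG binding domain family, was at 0.66 with all of its guides higher (limma, unadjusted p = 0.0132, adjusted p = 0.640). At the unadjusted limma threshold 4.62% of all genes were higher there. MBD1, a reader of methylated CpG, was at -0.16 and passed the unadjusted threshold of rank aggregation as lower, as did 3.85% of all genes. Its lowest guide was at -2.35, whereas 6 of its 10 guides were higher under Taxol. In DMSO relative to AP, MBD2, which links methylated DNA to the NuRD complex, was at 0.72 and MBD6 at 0.45 (limma, unadjusted p = 0.0159 and 0.0444). At that threshold 12.5% of all genes were higher, and the non-targeting sgRNAs had a median fold change of 0.43. USP7, a deubiquitinase that stabilises UHRF1 and DNMT1 among many substrates, was at -0.69, with 9 of 10 guides lower and all DMSO libraries below both AP libraries (limma, unadjusted p = 0.00877, adjusted p = 0.139). At the unadjusted limma threshold 8.73% of all genes were lower there, and 14.1% were lower without overlap. USP7 also passed the unadjusted threshold of rank aggregation as lower, as did 10.4% of all genes. The non-targeting sgRNAs had a median fold change of 0.68 in Taxol relative to AP. There MBD5 (0.79), MBD2 (0.70) and the stress-induced protein GADD45A (0.65) passed the unadjusted limma threshold as higher, as did 16.9% of all genes. APEX1, the nuclease that follows TDG in base excision repair, at -0.26 and the histone methyltransferase SETDB1 at -0.41 passed that of rank aggregation as lower, as did 12.3% of all genes.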

How the data were processed

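Each sgRNA table was deposited by the authors for one comparison and holds counts already normalized within that table, with all libraries of one group written into a single cell. Other values in it, and the gene tables, are the authors' own comparisons (fold changes, p-values, ranks) and were not used. MAGeCK 0.5.8 is the tool named in the submitters' processing notes. Mapping options and the genome build are not given in the sources used here, and guide sequences were not used. Within a cell the values were taken as replicates 1, 2 and 3 in turn, an assumption from the order of numbers in the table names; for AP, where the labels name replicates 1 and 3, the middle value was left out (2 value columns in all). 1 row per table that names no gene was dropped. The deposited values were whole multiples of a step per library, which gave back the reads for 99.01% to 99.97% of values within 0.1 read and totals of 2045984 (Taxol 2) to 11771417 (Taxol 1).

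Values were transformed as log2(normalized count + 1) and averaged over the sgRNAs of a gene. Gene means (779 genes) and single sgRNAs (7855) were tested with limma 3.58.1 in R 4.3.3 (lmFit, eBayes with trend, two-sided, no covariates) with Benjamini-Hochberg adjustment over all genes or all sgRNAs, after tests on simulated data. Robust rank aggregation, the gene test the study names, was an alternative: guides were ordered by limma's moderated statistic, and its one-sided p-values are the Bonferroni bound of the rho statistic, adjusted within each direction. The replicate number was tried as a block for Taxol and DMSO, as same-numbered libraries deviated together from their group means (correlations over genes of 0.19, 0.15 and 0.22). The labels do not say that these samples were paired, and the main fit has no block. The fit with the replicate number as a block called 1 lower and 2 higher genes in Taxol relative to DMSO, against 0 lower and 1 higher without it, and none of the 10 genes. Other alternatives were a pseudocount of 10, a minimum mean of 30 normalized counts per sgRNA, centring on non-targeting or on all sgRNAs, the median over sgRNAs, leaving out each library and, chosen after seeing the data, limma's voom on summed recovered reads.

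The 10 genes and the lists were chosen with earlier results of these data known. All 10 are described; of the other pathway genes, those past an unadjusted p of 0.05 in the gene fit or in rank aggregation are named, except for 1 that is not reported here, and ABCB1, PRMT5 and KEAP1 serve as a scale. sgRNAs are described where they passed an unadjusted p of 0.05, where they belong to a gene that did, or, chosen after their values were seen, where one guide held most counts of a gene in a library.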

Additional observations from a re-analysis of the deposited data

How the results depend on the processing

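None of the 10 genes was called under the settings tried other than those named here. Of the combinations of a gene and a setting, 15 of 140 turned sign and none gained a call in Taxol relative to DMSO, 13 of 130 turned and 1 gained a call in DMSO relative to AP, and 4 of 130 turned and 3 gained a call in Taxol relative to AP. Centring on the non-targeting sgRNAs called 2 of the 10 in Taxol relative to AP (DNMT1 and UHRF1), with 150 genes lower and 4 higher of all genes, and in DMSO relative to AP left no gene called higher (0, against 6). It turned DNMT3B (-0.14), UHRF2 (-0.018) and TET1 (-0.15) in Taxol relative to DMSO, TET2 (-0.27) and TDG (-0.16) in DMSO relative to AP, and DNMT3L (-0.28), TET3 (-0.26) and TDG (-0.11) in Taxol relative to AP. Centring on all sgRNAs turned TET2 in DMSO relative to AP (-0.0060). The median over sgRNAs turned DNMT3B (-0.048), UHRF2 (-0.14) and TET1 (-0.10) in Taxol relative to DMSO and DNMT1 (0.034) and TDG (-0.033) in DMSO relative to AP. With it, 3 genes were called lower and 3 higher in DMSO relative to AP, and 2 lower and 3 higher in Taxol relative to AP. Rank aggregation called 2 genes lower in Taxol relative to DMSO, 1 higher in DMSO relative to AP, and 30 lower and 13 higher in Taxol relative to AP. The voom fit on recovered reads, chosen after seeing the data, turned DNMT1 in all 3 comparisons (0.012, 0.21 and 0.28) and DNMT3L (0.022) and UHRF1 (0.084) in DMSO relative to AP. In Taxol relative to DMSO it moved DNMT3A to 1.07 (0.28 in the limma fit of gene means) and UHRF2 to 0.55 (0.15 there, and the groups did not overlap), neither called. It called 0 genes higher in Taxol relative to DMSO and in Taxol relative to AP, and 0 lower and 1 higher in DMSO relative to AP. The cause of these changes was not tested.

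With the replicate number as a block, Taxol relative to DMSO had 1 gene called lower and 2 higher, and no call among the 10 genes changed. Against AP the samples shared only a number (correlations of -0.00021 and -0.053 for DMSO with AP, and of -0.046 and 0.043 for Taxol with AP), and replicate 2, which has no AP partner, added nothing to the fold change. There the block gave 43 genes lower and 24 higher in DMSO relative to AP, 1 of the 10 among them (TET1, 0.61, adjusted p = 0.0189), with TET2 at -0.016. In Taxol relative to AP it gave 16 lower and 48 higher, with 1 of the 10 (TET2, 1.09, adjusted p = 0.0282).

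Leaving out each library in turn, the genes called lower and higher numbered 0 to 1 and 0 to 4 in Taxol relative to DMSO, 0 to 20 and 0 to 13 in DMSO relative to AP, and 0 to 1 and 0 to 8 in Taxol relative to AP. Fold changes whose sign turned ranged from -0.017 to 0.45 (DNMT3A), -0.16 to 0.15 (DNMT3B), -0.077 to 0.31 (UHRF2), -0.45 to 0.30 (TET1) and -0.075 to 0.39 (TDG) in Taxol relative to DMSO, and from -0.45 to 0.091 (DNMT1) and -0.059 to 0.13 (TET2) in DMSO relative to AP. With one AP library left out, the remaining one is assumed to vary like the DMSO or Taxol libraries. Depth was lowest in Taxol 2 and Taxol 3.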
